A study of Mus musculus with 27 samples.

Results

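Saa3, Lcn2, Hp, Orm1, Serpina3n and Steap4 are acute-phase genes that fat tissue expresses, and Saa1 and Saa2 are acute-phase genes close to absent from it. All 8 were followed as transcripts in epididymal fat, a visceral white adipose depot of male mice, through diet-induced weight gain, loss and regain. They were taken by name from the count table, 1 row each, and are 8 of its 43460 gene names; all 8 were among the 17821 names that passed the filter on low counts. The 27 libraries come from C57BL/6N mice and form 9 groups of 3. The gain8 group had 8 weeks of high-fat diet (60% of energy as fat) and was 13 weeks old. The loss group was returned from high-fat to normal diet for 4 weeks and was 17 weeks old. The regain group was given high-fat diet again for 4 weeks after weight loss, the gain4 group had 4 weeks of high-fat diet, and the maintenance group was kept on normal diet for 8 weeks after a high-fat period; these 3 groups were 21 weeks old. The diet of gain4 before its 4 weeks on high-fat diet, and the length of the first high-fat period in loss, maintenance and regain, follow only from the treatment periods. The initial group was 5 weeks old at the start of treatment. The normal-diet controls are control8 (8 weeks of treatment, age 13 weeks), control12 (12 weeks, age 17 weeks) and control16 (16 weeks, age 21 weeks). The labels do not say whether the samples of a group come from separate animals, and p-values then reflect only sample-to-sample spread, which may be technical. Maintenance library 3 carried liver transcripts, with 5233 CPM (read counts scaled to library size) of the albumin gene Alb against 0.908 to 80.9 CPM in the other 26 libraries, and it is given apart throughout.

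The acute phase is the rise of a set of secreted proteins during inflammation, driven by interleukin-6, interleukin-1 and tumour necrosis factor through STAT3, NF-kB and C/EBP transcription factors. The liver supplies most acute-phase proteins to the blood, but adipocytes and the macrophages of fat tissue also make several of them. In the mouse Saa3 is the serum amyloid A gene expressed outside the liver, while Saa1 and Saa2 are the hepatic forms. Hp encodes haptoglobin, which binds free haemoglobin, and Orm1 encodes orosomucoid, a carrier protein of plasma. Lcn2 encodes lipocalin-2, which withholds iron from bacteria by binding their siderophores. Serpina3n encodes a secreted serine protease inhibitor, and Steap4 encodes a membrane metalloreductase that reduces iron and copper in adipocytes.

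On GRCm38 the serum amyloid genes lie together on chromosome 7, with Saa3 at chr7:46711998-46715700, Saa1 at chr7:46740497-46742980 and Saa2 at chr7:46751790-46754313. The other genes lie apart from them, Lcn2 at chr2:32384633-32388252, Hp at chr8:109575128-109579172, Orm1 at chr4:63344560-63348163, Serpina3n at chr12:104406729-104414329 and Steap4 at chr5:7960457-7982213. Promoters in the RefSeq table (GRCm38.p6, 250 bases before to 50 after a gene's start) were found for 6 of the 8 genes, all but Hp and Orm1. Each was searched on both strands for the letters TTGCNNAA (C/EBP), GGG and TTTCC with 2 bases between them (NF-kB) and TTCNNNGAA (STAT); no 2 matches overlapped. The C/EBP letters were present in 5 of the 6, those of Saa3, Saa1, Saa2, Lcn2 and Steap4, and in 10.8% of all 32851 promoters in the table. The NF-kB letters were in the promoters of Serpina3n and Steap4 and in 1.63% of all promoters, and the STAT letters were in that of Steap4 and in 8.3% of all. The promoters of the 3 serum amyloid genes are shown because they share the C/EBP letters while their levels differed widely, and that of Steap4 because it held all 3 motifs while its transcript level changed least. The sequences run 5′ to 3′ and the capitals mark the motif matches, in Steap4 the NF-kB, STAT and C/EBP letters in that order. The C/EBP match of Saa3 and the NF-kB match of Steap4 lie on the strand opposite to the one shown. Their capitals therefore read as the reverse complement of the motif letters.
Saa3 (chr7:46715627-46715926, minus strand): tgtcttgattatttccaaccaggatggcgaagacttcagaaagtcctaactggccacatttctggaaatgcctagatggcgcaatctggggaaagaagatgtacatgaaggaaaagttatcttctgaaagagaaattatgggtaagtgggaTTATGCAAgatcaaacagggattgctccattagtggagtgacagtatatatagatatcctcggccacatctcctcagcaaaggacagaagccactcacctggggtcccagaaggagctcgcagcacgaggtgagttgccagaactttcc
Saa1 (chr7:46742931-46743230, minus strand): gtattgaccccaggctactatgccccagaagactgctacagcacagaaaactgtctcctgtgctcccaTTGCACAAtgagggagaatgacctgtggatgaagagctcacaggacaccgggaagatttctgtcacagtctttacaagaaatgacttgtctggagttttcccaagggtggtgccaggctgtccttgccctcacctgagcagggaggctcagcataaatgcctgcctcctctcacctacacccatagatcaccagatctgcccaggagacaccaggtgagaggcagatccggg
Saa2 (chr7:46751583-46751882, plus strand): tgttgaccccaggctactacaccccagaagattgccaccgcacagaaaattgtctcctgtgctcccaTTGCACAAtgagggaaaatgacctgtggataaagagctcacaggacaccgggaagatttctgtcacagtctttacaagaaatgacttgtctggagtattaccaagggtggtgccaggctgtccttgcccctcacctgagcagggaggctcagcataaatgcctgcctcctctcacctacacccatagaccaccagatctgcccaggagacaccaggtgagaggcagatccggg
Steap4 (chr5:7960222-7960521, plus strand): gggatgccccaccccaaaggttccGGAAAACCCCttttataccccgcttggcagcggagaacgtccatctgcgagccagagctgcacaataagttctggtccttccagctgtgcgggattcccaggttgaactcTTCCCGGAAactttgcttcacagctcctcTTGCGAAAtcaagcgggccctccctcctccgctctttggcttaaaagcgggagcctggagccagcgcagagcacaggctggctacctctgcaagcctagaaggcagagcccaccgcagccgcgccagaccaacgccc
The match ends 92 bases before the start in Saa3, at -92, and lies farther out in Saa1, from -182 to -175, and Saa2, from -183 to -176. The Saa1 and Saa2 promoters were identical at 96% of aligned bases and their transcripts at 94.4%. Reads that match both genes may be assigned to the wrong one or left uncounted, so their separate counts are uncertain and may be too low. The Orm1 transcript was identical to that of Orm2 at 91% and to that of Orm3 at 86.5% of aligned bases, which makes the Orm1 counts uncertain to a smaller degree.

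Per kilobase of exon, Hp was the most abundant of the 8 in these fat pads and the hepatic serum amyloid genes were close to absent. Over the 26 libraries other than maintenance library 3 the median level was 1883 FPKM for Hp, 244 FPKM for Serpina3n, 209 FPKM for Orm1, 117 FPKM for Steap4, 14.8 FPKM for Saa3 and 3.94 FPKM for Lcn2. Saa1 had a median of 0.165 FPKM and was at 0 reads in 5 of the 26 libraries, and Saa2 had a median of 0.0593 FPKM and was at 0 in 7. Saa3 varied most, with group means 113-fold apart between gain8 (highest) and initial (lowest) in CPM. Steap4 varied least, with group means 1.49-fold apart between control8 and initial.

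**Figure D1:**
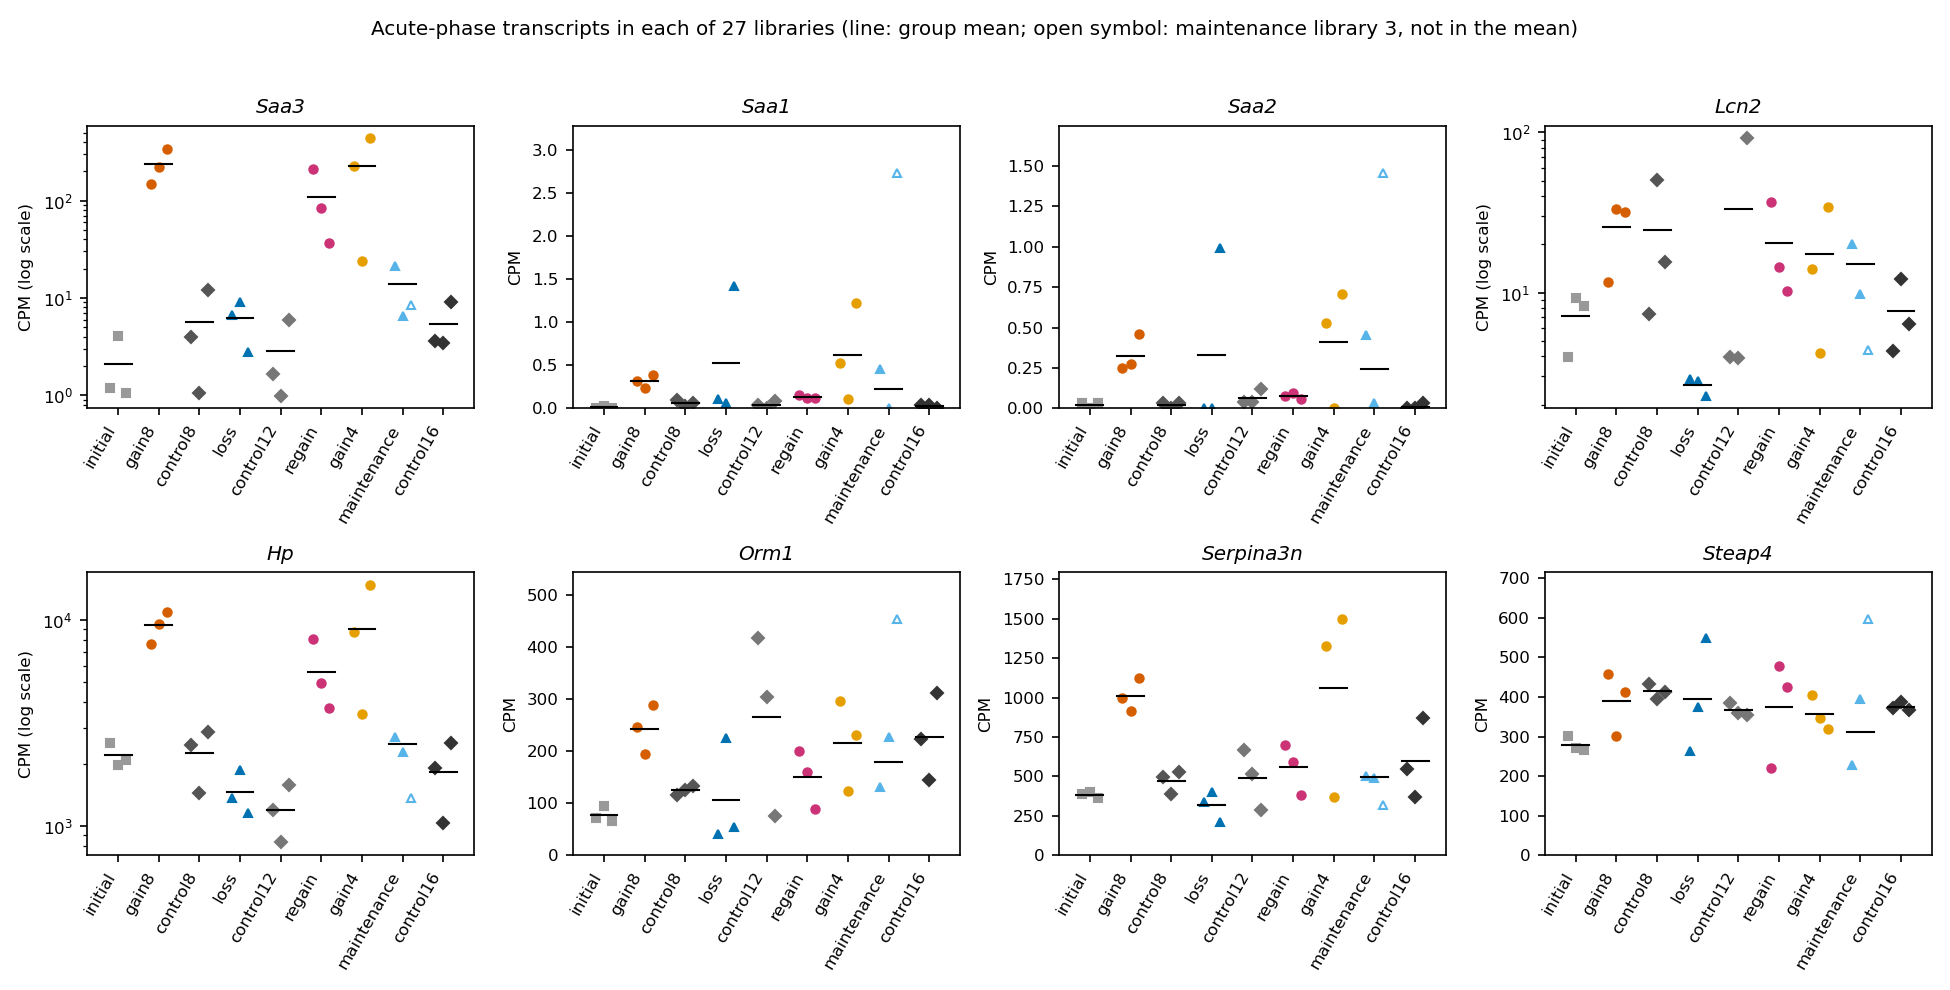
CPM of each acute-phase gene in all 27 libraries by group, with a log axis for Saa3, Lcn2 and Hp; each symbol is 1 library, the line is the group mean, and the open symbol is maintenance library 3, which is not in the mean. Saa3 and Hp stand highest in gain8, regain and gain4, and Steap4 stays between 221 and 596 CPM in all libraries.

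Libraries held 26479773 to 32728594 counts. All 12 adipocyte markers were above 0 in every library, with summed levels of 16435 to 71278 CPM. Libraries also fell into sets of 15 and 12 on either side of 1000 CPM of Lars2, a transcript whose locus carries ribosomal-like sequence, and both sets occur in all groups but the initial one; values within each set are given for the main results. Without Cyp2e1, which fat itself expresses, 15 hepatocyte markers summed to 8331 CPM in maintenance library 3, against 90.4 to 139 CPM in control8 and 6.59 to 43.2 CPM in the 23 remaining libraries.

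After 8 weeks of high-fat diet, Saa3, Hp and Serpina3n rose above the age-matched controls. They are 3 of the 8 genes, against 15.0% of all genes called higher at an adjusted p under 0.05 (edgeR quasi-likelihood test). Saa3 had 149, 223 and 339 CPM in the gain8 libraries, against 3.95, 1.04 and 12.1 CPM in the control8 libraries. The lowest gain8 library stood far above the highest control8 library. The log2 fold change was 5.39 ± 1.06 (SE; edgeR adjusted p = 0.00103), a 41.8-fold difference, the largest of the 8 genes. Without control8 library 3 it was 6.57. Hp had 7666, 9576 and 10955 CPM in gain8, against 2485, 1452 and 2874 CPM in control8, again with no overlap between the groups. Its log2 fold change was 2.05 ± 0.43 (SE; edgeR adjusted p = 0.00164), or 4.14-fold. Serpina3n averaged 1010 ± 107 CPM in gain8 and 471 ± 72.1 CPM in control8 (SD, n = 3 each). Its log2 fold change of 1.10 ± 0.40 passed the threshold narrowly (SE; edgeR adjusted p = 0.0453), and the call ended when any 1 of the 6 libraries was left out, with adjusted p between 0.0741 and 0.137.

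The other 5 genes did not pass the test in gain8. Orm1 had 246, 194 and 288 CPM in gain8 libraries, against 116, 125 and 133 CPM in control8 libraries. These groups did not overlap, but the log2 fold change of 0.96 ± 0.56 was not called (SE; edgeR adjusted p = 0.210). In all, 6 of the 8 genes had every gain8 library above every control8 library, where 26.5% of all genes did. Saa1 had 9, 7 and 11 reads in gain8 and 3, 1 and 2 reads in control8. Saa2 had 7, 8 and 13 reads in gain8 and 1, 0 and 1 reads in control8. The summed, scaled reads of gain8 over control8 gave a ratio of 4.97 for Saa1 (95% exact interval 2.01 to 14.7) and of 15.5 for Saa2 (3.90 to 134), intervals that cover counting error only. Neither was called (edgeR adjusted p = 0.166 and 0.0796). Lcn2 had 11.6, 33.2 and 32.0 CPM in gain8, against 7.31, 50.7 and 15.5 CPM in control8. Its highest value was in a control library, and its log2 fold change was 0.06 ± 0.94 (SE; edgeR adjusted p = 0.969). Steap4 averaged 391 ± 80.3 CPM in gain8 and 414 ± 19.1 CPM in control8 (SD, n = 3 each), with a log2 fold change of -0.08 ± 0.26 (SE; edgeR adjusted p = 0.837).

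Within the Lars2 sets these 3 genes were also higher in gain8 than in control8. The difference of mean log2 CPM for Saa3 was 7.07 in the high set (1 library against 1) and 5.30 in the low set (2 against 2). For Hp it was 2.40 in the high set and 1.94 in the low set, and for Serpina3n 1.35 in the high set and 0.99 in the low set. The sign differed between the sets for Lcn2, at -2.12 in the high set and 1.61 in the low set. Liver markers ran the other way in this comparison, with Alb at 4.27 to 28.3 CPM in gain8 and 47.1 to 80.9 CPM in control8. Of 16 hepatocyte markers 0 were called higher and 9 lower in gain8, with a list median log2 fold change of -2.59. Against their own controls the list median was 1.02 in gain4, 1.08 in regain and 0.94 in loss. There 0, 0 and 2 were called higher and 0, 1 and 1 lower. Macrophage markers moved with the rise: 11 of 12 were called higher in gain8, their summed level was 5314 to 6079 CPM in gain8 and 1342 to 1832 CPM in control8, and none was at 0. Neutrophil markers were low, with sums of 31.0 to 67.6 CPM in gain8 and 8.63 to 13.4 CPM in control8; 2 of the 8 tested were called higher and Ly6g was at 0 in 22 of all 27 libraries. S100a8 made up much of these sums, and without it, a choice made after its values were seen, they were 12.3 to 15.9 CPM in gain8 and 6.91 to 10.4 CPM in control8. In whole tissue fewer cells of a type and less RNA per cell cannot be told apart, and the part of these cell types in the result was not tested.

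With 4 weeks of high-fat diet Saa3 and Hp rose in gain4, with a wide spread between its libraries. Saa3 had 228, 23.8 and 435 CPM in gain4, against 3.63, 3.41 and 9.16 CPM in control16. Hp had 8743, 3488 and 14750 CPM in gain4, against 1923, 1040 and 2527 CPM in control16. Gain4 library 2 was the lowest of its group for both genes, yet lay above every control16 library. The log2 fold change was 5.40 ± 1.07 for Saa3 (SE; edgeR adjusted p = 0.00573) and 2.30 ± 0.43 for Hp (SE; edgeR adjusted p = 0.00477). A fit to gain4 and control16 alone ended both calls (edgeR adjusted p = 0.105 and 0.133). That fit called 0 of all genes, so no gene kept a call in it. The Saa3 value was 4.54 without gain4 library 3 and 6.02 without control16 library 3. Saa1 was the third gene called, at 4.50 ± 1.34 (SE; edgeR adjusted p = 0.0354), from 15, 3 and 40 reads in gain4 and 1, 1 and 0 reads in control16. The ratio of its scaled reads was 27.5 (95% exact interval 7.29 to 233, counting error only), and its call ended without gain4 library 3 or any 1 control16 library, with adjusted p between 0.0789 and 0.128. Thus 3 of the 8 genes were called higher, against 7.56% of all genes, and the same 3 had every gain4 library above every control16 library, as did 14.1% of all genes. The calls over all genes, 2056 in either direction, numbered 401 without control16 library 1 and 321 without control16 library 2. Saa2 had 15, 0 and 23 reads in gain4 and 0, 0 and 1 reads in control16 and was not called (edgeR adjusted p = 0.0724).

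Serpina3n followed the same libraries as Saa3 in gain4 but was not called. It had 1326, 368 and 1496 CPM in gain4, against 544, 371 and 870 CPM in control16. Gain4 library 2 lay below every control, and the log2 fold change was 0.84 ± 0.40 (SE; edgeR adjusted p = 0.170). Without that library it was 1.25 and was called (edgeR adjusted p = 0.0301). Orm1 averaged 216 ± 86.9 CPM in gain4 and 226 ± 83.1 CPM in control16, and Lcn2 17.4 ± 15.2 CPM in gain4 and 7.64 ± 4.10 CPM in control16 (SD, n = 3 each); neither was called (edgeR adjusted p = 0.954 and 0.437). Steap4 had 404, 348 and 320 CPM in gain4 and 373, 388 and 367 CPM in control16, with overlapping groups (edgeR adjusted p = 0.881). Gain4 library 2 is also the 1 gain4 library of the high Lars2 set. The difference of mean log2 CPM between gain4 and control16 was 2.74 for Saa3 and 1.30 for Hp in the high set (1 against 2), and 5.09 for Saa3 and 2.17 for Hp in the low set (2 against 1). Macrophage markers summed to 2674 to 5196 CPM in gain4 and 1813 to 2172 CPM in control16, with 6 of 12 called higher. Neutrophil markers summed to 32.7 to 73.4 CPM in gain4 and 11.2 to 22.6 CPM in control16, with 1 of 8 called higher. Without S100a8 the sums overlapped, at 11.4 to 24.1 CPM in gain4 and 9.59 to 14.4 CPM in control16. The part of macrophages or neutrophils in the result was not tested.

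Saa3 and Hp also rose in regain, after the second high-fat period. Saa3 had 209, 83.4 and 36.8 CPM in regain, against 3.63, 3.41 and 9.16 CPM in control16. Hp had 8049, 4946 and 3738 CPM in regain, against 1923, 1040 and 2527 CPM in control16. Every regain library was above every control16 library for both genes. The log2 fold change was 4.34 ± 1.02 for Saa3 (SE; edgeR adjusted p = 0.00343) and 1.61 ± 0.42 for Hp (SE; edgeR adjusted p = 0.00808). Without regain library 1 the Saa3 value was 3.47, and without control16 library 3 it was 4.96. These 2 of 8 genes stand against 15.2% of all genes called higher. With Saa1 and Saa2, 4 of the 8 had every regain library above every control16 library, as did 23.1% of all genes. Within the Lars2 sets the difference of mean log2 CPM was 3.95 for Saa3 and 1.60 for Hp in the high set (2 against 2), and 4.50 for Saa3 and 1.67 for Hp in the low set (1 against 1).

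Serpina3n was not called in regain, with 700, 588 and 382 CPM in regain against 544, 371 and 870 CPM in control16 (log2 fold change -0.10 ± 0.39, SE; edgeR adjusted p = 0.879). Orm1 had 201, 159 and 88.6 CPM in regain, against 223, 145 and 311 CPM in control16 (log2 fold change -0.60 ± 0.56, SE; edgeR adjusted p = 0.445). Both genes overlapped between the groups. Lcn2 had 36.7, 14.5 and 10.2 CPM in regain, against 4.31, 12.2 and 6.39 CPM in control16 (log2 fold change 1.42 ± 0.97, SE; edgeR adjusted p = 0.289). Steap4 averaged 374 ± 135 CPM in regain and 376 ± 10.7 CPM in control16 (SD, n = 3 each), close means with a wider spread in regain. Saa1 had 4 reads in each regain library and Saa2 had 2, 3 and 2. All 12 macrophage markers were called higher, with sums of 5759 to 11021 CPM in regain and 1813 to 2172 CPM in control16, and 6 of 12 adipocyte markers were called lower. Neutrophil markers summed to 20.8 to 59.0 CPM in regain and 11.2 to 22.6 CPM in control16, with 1 of 8 called higher and 1 lower. Without S100a8 the sums overlapped, at 11.4 to 22.4 CPM in regain and 9.59 to 14.4 CPM in control16. The part of these cell types was not tested.

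**Figure D2:**
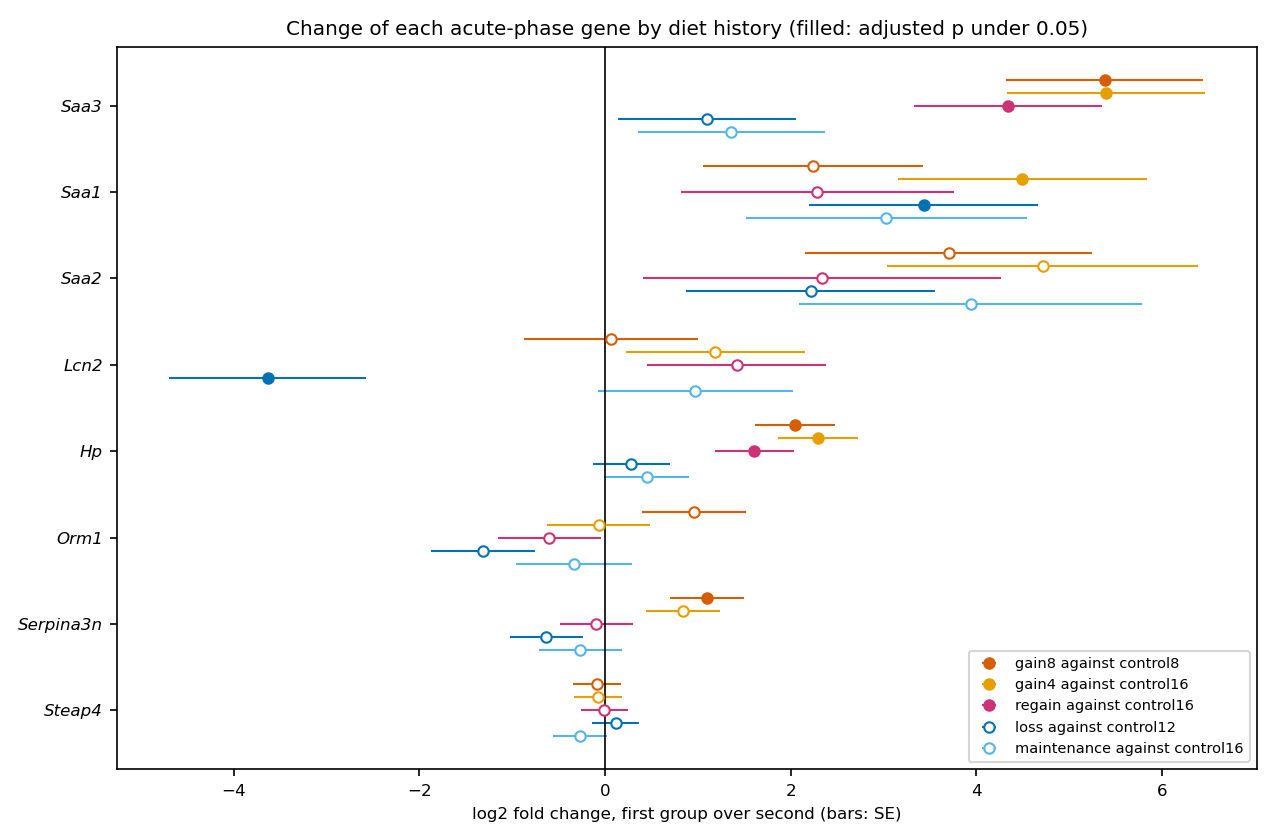
Log2 fold change of each gene with its SE in 5 comparisons of a diet group with its age-matched control; filled symbols passed an adjusted p under 0.05 (edgeR). Saa3 and Hp have filled symbols in gain8, gain4 and regain and open ones in loss and maintenance.

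Between regain and gain4 none of the 8 genes passed the test. The gain4, regain and maintenance comparisons share the control16 libraries, so regain was also set directly against gain4. Saa3 averaged 110 ± 89.2 CPM in regain and 229 ± 206 CPM in gain4 (SD, n = 3 each), with a log2 difference of -1.06 ± 0.88 (SE; edgeR adjusted p = 0.447). Hp averaged 5578 ± 2224 CPM in regain and 8994 ± 5635 CPM in gain4, with -0.69 ± 0.42 (SE; edgeR adjusted p = 0.280). Serpina3n averaged 557 ± 161 CPM in regain and 1063 ± 608 CPM in gain4, with -0.93 ± 0.40 (SE; edgeR adjusted p = 0.127). The groups overlapped for each of the 8 genes. Of all genes 10.4% were called, but 0 were without regain library 3 or without gain4 library 1 and 1 without gain4 library 2. The sign differed between the Lars2 sets, where the difference of mean log2 CPM for Saa3 was 1.21 in the high set (2 against 1) and -0.59 in the low set (1 against 2).

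After 4 weeks back on normal diet Saa3 and Hp were not called against their controls. Saa3 had 6.74, 9.14 and 2.81 CPM in the loss libraries, against 1.66, 0.993 and 5.90 CPM in the control12 libraries. Hp had 1368, 1863 and 1163 CPM in loss, against 1200, 835 and 1574 CPM in control12. The groups overlapped for both genes, and the log2 fold change was 1.10 ± 0.96 for Saa3 (SE; edgeR adjusted p = 0.417) and 0.28 ± 0.41 for Hp (SE; edgeR adjusted p = 0.646). Serpina3n had 338, 398 and 212 CPM in loss, against 664, 516 and 287 CPM in control12 (log2 fold change -0.63 ± 0.40, SE; edgeR adjusted p = 0.248). Orm1 had 40.5, 225 and 54.5 CPM in loss, against 417, 304 and 75.0 CPM in control12 (log2 fold change -1.32 ± 0.56, SE; edgeR adjusted p = 0.0901). Without loss library 2 the Orm1 value was -2.48 (edgeR adjusted p = 0.00228), and without control12 library 3 it was -1.76 (edgeR adjusted p = 0.0264). Within the Lars2 sets the difference of mean log2 CPM between loss and control12 was 0.82 for Saa3 and 0.14 for Hp in the high set (2 against 2), and 2.41 for Saa3 and 0.63 for Hp in the low set (1 against 1). Steap4 had 265, 374 and 550 CPM in loss, against 385, 360 and 354 CPM in control12 (edgeR adjusted p = 0.777).

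Macrophage markers were high in loss while Saa3 and Hp were not. All 12 were called higher in loss, with sums of 15139, 5447 and 5430 CPM in loss and 1271 to 1670 CPM in control12. Of the 12 adipocyte markers 4 were called lower in loss, with sums of 16435, 42633 and 27289 CPM in loss and 35274 to 62567 CPM in control12. Loss library 1 was thus highest in the one list and lowest in the other. Cd68, a lysosomal protein of macrophages, had 454 to 1065 CPM in loss and 54.3 to 74.5 CPM in control12, and 351 to 487 CPM in gain8. S100a8, abundant in neutrophils, had 1.16 to 4.06 CPM in loss and 1.35 to 2.44 CPM in control12, and 18.7 to 51.7 CPM in gain8. S100a9, another of the neutrophil markers, did not share this rise in gain8, with 0.340 to 0.853 CPM there and 0.553 to 0.638 CPM in control8. It had 0.605 to 0.827 CPM in loss and 0.209 to 0.802 CPM in control12. The 12 neutrophil markers summed to 10.7 to 20.1 CPM in loss and 8.59 to 13.2 CPM in control12, and 2 of the 8 tested were called higher. The part of these cell types in the loss values was not tested. The difference between the 2 effects, loss against control12 less gain8 against control8, was -4.29 ± 1.35 for Saa3 and -1.77 ± 0.59 for Hp (SE). It was -1.73 ± 0.56 for Serpina3n, -2.27 ± 0.79 for Orm1 and -3.70 ± 1.39 for Lcn2 (SE). None passed the adjustment over all genes (edgeR adjusted p between 0.381 and 0.433 for these 5), and 0% of all genes did, although 5 of the 8 and 1604 of all genes had an unadjusted p under 0.05. DESeq2 called 81 of all genes and none of the 8. Without loss library 2 edgeR called 85 of all genes, Orm1 among them at -3.44 (edgeR adjusted p = 0.0413).

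**Figure D3:**
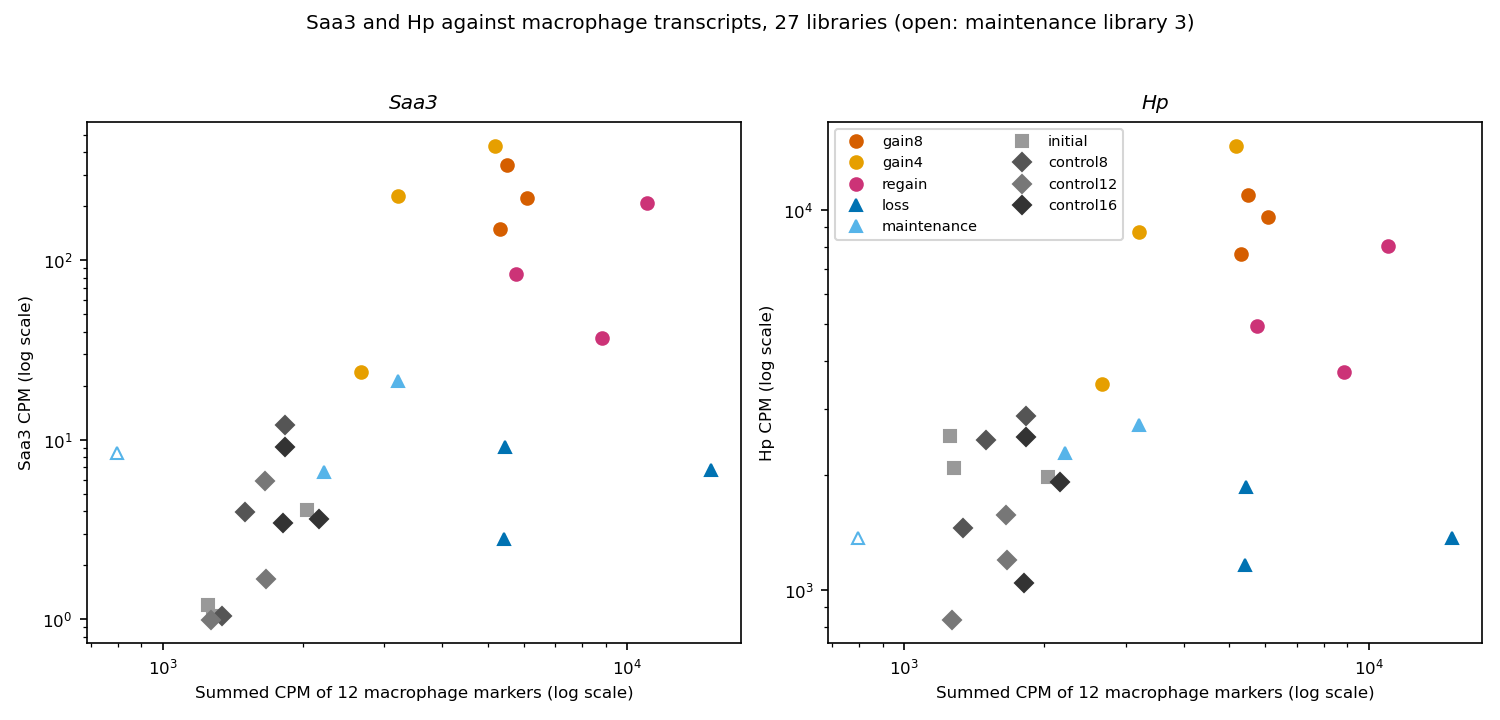
CPM of Saa3 (left) and Hp (right) against the summed CPM of 12 macrophage markers, 1 symbol per library, both axes log. The loss libraries have 5430 to 15139 CPM of macrophage markers but 2.81 to 9.14 CPM of Saa3, where gain8 libraries with 5314 to 6079 CPM of the markers have 149 to 339 CPM of Saa3.

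Lcn2 and Saa1 were the genes called in loss, 1 lower and 1 higher, and each call rested on 1 library. The background was 14.5% of genes called higher and 11.1% called lower. Lcn2 had 2.90, 2.82 and 2.28 CPM in loss, against 3.99, 3.93 and 91.5 CPM in control12. The loss libraries all lay below the controls, as was the case for 17.1% of all genes, and 1 control stood far above the other two. The log2 fold change was -3.64 ± 1.06 (SE; edgeR adjusted p = 0.0168), and without control12 library 3 it was -0.57 (edgeR adjusted p = 0.673). Within the Lars2 sets the difference of mean log2 CPM was -2.86 in the high set and -0.49 in the low set. The call also ended without loss library 1 or 3 (edgeR adjusted p = 0.0752 and 0.0561). Control12 library 3 and control8 library 2, which had 50.7 CPM of Lcn2, carried the highest sums of 12 epididymal epithelium markers, 103 CPM and 65.2 CPM, where all the others had at most 23.7 CPM. In each of these 2 libraries 4 of the 12 markers were at 0. Over all libraries Foxj1 and Cdh16 reached 1517 and 1476 reads, and the other markers at most 602. The next highest Lcn2 values were 36.7 CPM in regain library 1 and 34.1 CPM in gain4 library 3. Their sums of epididymal markers were 2.10 and 4.66 CPM. The part of epididymal tissue in the Lcn2 values was not tested. Saa1 had 3, 2 and 43 reads in loss, against 1, 0 and 3 reads in control12, with a log2 fold change of 3.43 ± 1.23 (SE; edgeR adjusted p = 0.0456). Without loss library 3 it was 0.86 (edgeR adjusted p = 0.668), and without any 1 control12 library the adjusted p was between 0.0672 and 0.131. Saa2 had 0, 0 and 30 reads in loss and 1, 1 and 4 in control12, so the same library held nearly all reads of both genes. Of the hepatocyte markers, Ttr had 0, 0 and 41 reads in loss libraries 1, 2 and 3. Alb had 26, 137 and 423 reads there, and Ahsg ran the other way, with 518, 27 and 49. Without Cyp2e1 these markers summed to 7.32 to 26.4 CPM in loss, highest in library 3, and 20.8 to 24.9 CPM in control12. In gain4 library 3, with 40 reads of Saa1, Ttr had 2 reads. The part of liver RNA in the Saa1 and Saa2 values was not tested.

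**Figure D4:**
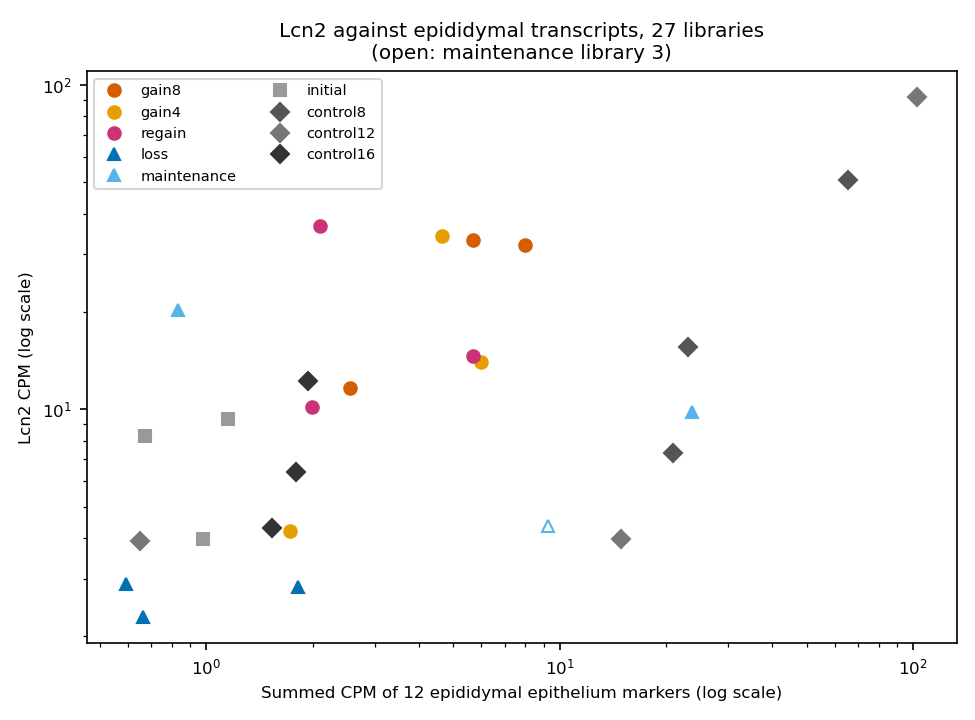
CPM of Lcn2 against the summed CPM of 12 epididymal epithelium markers, 1 symbol per library, both axes log. Control12 library 3 and control8 library 2 are the 2 libraries at the upper right, at 91.5 and 50.7 CPM of Lcn2.

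After 8 weeks back on normal diet none of the 8 genes passed the test. Saa3 had 21.3 and 6.59 CPM in maintenance libraries 1 and 2, against 3.63, 3.41 and 9.16 CPM in control16 (log2 fold change 1.36 ± 1.01, SE; edgeR adjusted p = 0.543). Hp had 2719 and 2285 CPM in maintenance, against 1923, 1040 and 2527 CPM in control16 (log2 fold change 0.45 ± 0.46, SE; edgeR adjusted p = 0.662). Maintenance library 1 lay above the controls for both genes and library 2 among them. In this comparison 0% of all genes were called by edgeR, with 2340 at an unadjusted p under 0.05 and 1 of them, Saa2, among the 8. DESeq2 called 66 of all genes and none of the 8, and without maintenance library 2 edgeR called 322 and none of the 8, where the lone remaining library is assumed to vary like the other groups. Both maintenance libraries are of the low Lars2 set, where the difference of mean log2 CPM from the 1 control16 library was 0.37 for Saa3 and -0.02 for Hp. Regain against maintenance left Saa3 at 2.98 ± 1.12 (SE; edgeR adjusted p = 0.0513) and Hp at 1.16 ± 0.48 (SE; edgeR adjusted p = 0.0770). For both genes each of the 3 regain libraries lay above both maintenance libraries, as did 27.3% of all genes, and 28.2% of all genes were called in either direction. Saa3 was called without regain library 3, at 3.39 (edgeR adjusted p = 0.0466). In the low Lars2 set the difference of mean log2 CPM (1 against 2) was 4.13 for Saa3 and 1.69 for Hp. The change of Lcn2 from the loss effect to the maintenance effect was 4.61 ± 1.47 (SE; edgeR adjusted p = 0.0512), where 9.54% of all genes were called, and without control12 library 3 it was 1.54 (edgeR adjusted p = 0.415). The calls over all genes numbered 0 without maintenance library 1, where the lone remaining library is assumed to vary like the other groups, 554 without loss library 1 and 3415 without loss library 2.

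In CPM, maintenance library 3 stood above all other libraries in 4 of the 8 genes. It had 62 reads of Saa1 and 33 of Saa2, or 2.74 and 1.46 CPM, and 453 CPM of Orm1 and 596 CPM of Steap4. These 4 values were the highest of all 27 libraries in CPM, where this library had the lowest TMM scaling factor, 0.814. In FPKM its Orm1 level was 480, against 497 in control12 library 1. Its Steap4 level was 156 FPKM, against 197 in loss library 3 and 160 in regain library 2. How many of all genes were highest in this library was not counted. Its 8.48 CPM of Saa3, 4.37 CPM of Lcn2, 1367 CPM of Hp and 315 CPM of Serpina3n ranked 14, 19, 23 and 25 among the 27, and its Hp, Lcn2 and Serpina3n values lay below those of maintenance libraries 1 and 2. The part of liver RNA in these values was not tested.

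On normal diet the 8 genes did not pass the test with age. Steap4 had 434, 396 and 413 CPM in control8, against 301, 270 and 265 CPM in the initial group, with no overlap (log2 fold change 0.57 ± 0.26, SE; edgeR adjusted p = 0.234). Orm1 had 116, 125 and 133 CPM in control8, against 70.9, 94.9 and 66.5 CPM in the initial group, also with no overlap (log2 fold change 0.69 ± 0.56, SE; edgeR adjusted p = 0.535). These 2 of 8 genes stand against 19.4% of all genes that lay higher in every control8 library, and 2.18% of all genes were called. A fit to these 2 groups alone called both genes (edgeR adjusted p = 0.0140 for Steap4 and 0.0316 for Orm1). That fit called 1937 of all genes, where the main fit called 389. Between control16 and control8 none of the 8 was called, where 0.174% of all genes were. Orm1 averaged 226 ± 83.1 CPM in control16 and 125 ± 8.31 CPM in control8, and Steap4 averaged 376 ± 10.7 CPM in control16 and 414 ± 19.1 CPM in control8 (SD, n = 3 each). Every control16 library was above every control8 library for Orm1 and below for Steap4, as were 10.1% and 9.92% of all genes. Hp averaged 1830 ± 748 CPM in control16 and 2270 ± 735 CPM in control8 (SD, n = 3 each).

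Other acute-phase genes were called in both directions, in shares mostly near those of all genes. The shares of all genes called higher and lower were 15.0% and 12.4% in gain8, 14.5% and 11.1% in loss, 7.56% and 3.97% in gain4, and 15.2% and 11.7% in regain, and the counts of this and the next 3 lists stand against them. Of 28 listed, 25 were tested; 5 were called higher and 2 lower in gain8, with a list median log2 fold change of 0.43 where that of all genes was -0.02. The counts were 2 and 3 in loss, 2 and 1 in gain4, and 5 and 2 in regain, and none in maintenance. Il1rn, which encodes the antagonist of the interleukin-1 receptor, rose in gain8, loss, gain4 and regain. Its gain4 call ended without control16 library 1 or 2 (edgeR adjusted p up to 0.0552). It averaged 62.1 ± 12.6 CPM in gain8 and 2.39 ± 0.24 CPM in control8 (SD, n = 3 each), with a log2 fold change of 4.70 ± 0.81 (SE; edgeR adjusted p = 0.000346). In loss, where Saa3 was not called, Il1rn averaged 119 ± 127 CPM, against 2.69 ± 2.57 CPM in control12, with a log2 fold change of 5.43 ± 0.83 (SE; edgeR adjusted p = 0.000117). Without loss library 1 it was 4.08 and without control12 library 3 it was 6.54. Without control16 library 3 the Il1rn value in gain4 was 4.98. Cp, the copper-carrying ferroxidase ceruloplasmin, fell in the same 4 groups. Its gain4 call ended without gain4 library 2 or control16 library 1 or 2 (edgeR adjusted p between 0.0506 and 0.0816). It averaged 93.4 ± 21.7 CPM in gain8 and 358 ± 36.7 CPM in control8 (SD, n = 3 each), with a log2 fold change of -1.94 ± 0.27 (SE; edgeR adjusted p = 6.76e-05). Orm2, a close copy of Orm1, averaged 12.0 ± 4.36 CPM in gain8 and 1.23 ± 0.33 CPM in control8 (SD, n = 3 each; log2 fold change 3.28 ± 0.73, SE; edgeR adjusted p = 0.00268).

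Of the cytokines that induce the acute phase and their receptors, 18 of 20 listed were tested, and 4 were called higher and 0 lower in gain8. They were 7 and 0 in loss, 1 and 2 in gain4, and 5 and 1 in regain. Tnf, the gene of tumour necrosis factor, had 1.67 to 3.09 CPM in gain8 and 0.308 to 0.522 CPM in control8. Its log2 fold change was 2.49 ± 0.61 in gain8 (SE; edgeR adjusted p = 0.00470), 3.58 ± 0.62 in loss (SE; edgeR adjusted p = 0.000334) and 3.35 ± 0.61 in regain (SE; edgeR adjusted p = 0.000445). It was 2.80 in loss without loss library 1 and 4.20 in regain without control16 library 3. Tnfrsf1b, a receptor for that cytokine, averaged 138 ± 6.20 CPM in gain8 and 56.2 ± 6.52 CPM in control8 (SD, n = 3 each; edgeR adjusted p = 0.00177). Il6, the gene of interleukin-6, had 0.102 to 0.141 CPM in gain8 and 0.0307 to 0.0671 CPM in control8, at most 0.487 CPM in any group; it is given although it was not called and was chosen after its values were seen.

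Of 18 STAT3, NF-kB and C/EBP factors, 2 were called higher in gain8 and none lower. These were Cebpb at 0.91 ± 0.27 and Nfkb2 at 0.60 ± 0.18 (SE; edgeR adjusted p = 0.0167 and 0.0206). Cebpb averaged 62.6 ± 6.26 CPM in gain8 and 33.4 ± 4.35 CPM in control8 (SD, n = 3 each). The Cebpb call ended without gain8 library 2 or 3 or control8 library 1 (edgeR adjusted p between 0.0510 and 0.0701), and the Nfkb2 call without gain8 library 2 or 3 or control8 library 3 (edgeR adjusted p between 0.0552 and 0.104). In loss 6 were called higher and 1 lower, and in regain 5 and 1. Bcl3, a regulator of NF-kB, was called higher in loss at 1.86 ± 0.37 (SE; edgeR adjusted p = 0.00110). Cebpd was the gene called lower, at -1.61 ± 0.40 in loss (SE; edgeR adjusted p = 0.00636, and 0.0506 without loss library 1) and -2.13 ± 0.41 in regain (SE; edgeR adjusted p = 0.000690). It averaged 18.5 ± 2.35 CPM in regain and 80.8 ± 35.0 CPM in control16 (SD, n = 3 each). In gain4 none was called higher and 2 lower, among them Stat3 at -0.69 ± 0.15 (SE; edgeR adjusted p = 0.00937). The Stat3 call ended without control16 library 1 or 2 (edgeR adjusted p = 0.0596 and 0.0544).

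Receptors and partners of the 8 proteins, 19 tested of 20 listed, had 4 called higher and 3 lower in gain8, 5 and 3 in loss, 1 and 2 in gain4, and 5 and 5 in regain. Steap3, a relative of Steap4 that reduces endosomal iron, rose in loss (1.69 ± 0.22, SE; edgeR adjusted p = 2.66e-05) and regain (1.72 ± 0.22, SE; edgeR adjusted p = 2.00e-05). Steap2, another relative, fell in gain8 at -2.45 ± 0.42 (SE; edgeR adjusted p = 0.000304), with 2.48 to 4.51 CPM in gain8 and 16.7 to 21.9 CPM in control8. Mmp9, a matrix protease that lipocalin-2 binds, fell in gain8 at -2.65 ± 0.48 (SE; edgeR adjusted p = 0.000496), and was at -3.25 without gain8 library 1. Cd163, the macrophage receptor for haptoglobin bound to haemoglobin, fell in loss at -2.53 ± 0.46 (SE; edgeR adjusted p = 0.000619) and in regain at -2.39 ± 0.46 (SE; edgeR adjusted p = 0.000717). It averaged 38.9 ± 3.49 CPM in regain and 204 ± 57.7 CPM in control16 (SD, n = 3 each). Hmox1, which breaks down haem, rose in loss at 2.97 ± 0.56 (SE; edgeR adjusted p = 0.000710). Without loss library 1 it was 1.31 (edgeR adjusted p = 0.00691), and a fit to loss and control12 alone ended the call (edgeR adjusted p = 0.0906). That fit called 765 of all genes, where the main fit called 4557.

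Over the 26 libraries Saa3 and Hp followed each other most closely, with a Pearson r of 0.93 between their log2 CPM. This was the highest r of either gene with any of 11298 genes of at least 5 CPM. Next to Saa3 came Pter and Dynlt1b, both at 0.91, and next to Hp came Ccbl1 at 0.88 and Lrg1, which encodes an acute-phase glycoprotein, at 0.87. Serpina3n was closest to Wfdc21 at 0.93, Lrpap1 at 0.92 and Scoc at 0.91. Orm1 was closest to Prnp at 0.90, Ltbp3 at 0.89 and Hist1h2be at 0.88. Among the 8 genes r was 0.78 between Hp and Serpina3n, 0.75 between Orm1 and Serpina3n, 0.36 between Saa3 and Orm1, and -0.02 between Saa3 and Steap4. The nearest named genes to Lcn2 reached 0.74 (Ptprf), 0.68 (Olfml3) and 0.67 (Ramp1), and those to Steap4 0.77 (Hivep2), 0.76 (Ankrd27) and 0.75 (Ptpn11). These values describe libraries that share diet groups and scaling and carry no test.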

How the data were processed

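Total RNA of epididymal fat (60~70 mg of tissue per sample, TruSeq RNA kit, per the labels' protocols) was sequenced in 27 libraries. The submitters' processing notes name Trimmomatic 0.33, TopHat2 2.0.13 and HTSeq 0.6.0 and the builds mm10 and GRCm38; the annotation and the strand setting are not given in the sources used here. The authors deposited raw read counts per gene (43616 rows) and FPKM values (22194 rows). The 156 rows that repeat a name were identical to an earlier row and were dropped.

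Genes were kept by edgeR's filter (minimum count 10, minimum total 15) and counts scaled to CPM with TMM factors (0.814 to 1.11). The 26 libraries other than maintenance library 3 were fitted in 1 edgeR quasi-likelihood model (edgeR 4.0.16, R 4.3.3), with Benjamini-Hochberg adjustment over 17821 genes and a threshold of 0.05; fold changes are the first group named over the second. The deposited FPKM values were used for levels between genes and in limma 3.58.1 on log2(FPKM + 1) and log2(FPKM + 0.1). The alternatives also took DESeq2 1.42.0, other scalings, no filter, other sets of libraries, Lars2 as a term, the replicate number as a block, and each library left out. An exact 2-sided permutation test of 3 against 3 samples cannot go below 0.1, so none is given. The model was also run on simulated counts with known changes, and the results of that run are not given here.

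The 8 genes and the gene lists were chosen with earlier results of these data known. Named from each list were up to 3 called genes with the smallest adjusted p, and for each of the 8 genes the 3 genes with the highest correlation, passing over clone names; not all of them are reported. The values within Lars2 sets and the marker sums without Cyp2e1 and without S100a8 were chosen after the data were seen. Same-numbered samples of the compared groups had correlations of -0.158 to 0.340 in their deviations from group means, so the numbers were not used to pair samples. Promoter sequences are from RefSeq, and transcript sequences and gene positions are from GENCODE. Alignments were made with Biopython 1.88. Intervals on read ratios are exact 95% intervals, and PCR reads without molecular identifiers are not independent molecules.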

Additional observations from a re-analysis of the deposited data

Results flagged for a closer look

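Maintenance library 3 was kept out of the comparisons because of its liver transcripts. In CPM, 4 of the acute-phase genes had their highest value of all 27 libraries in it, above every control16 library. In FPKM Orm1 was higher in control12 library 1, and Steap4 was higher in loss library 3 and regain library 2. Saa1 reached 2.74 CPM in maintenance library 3, against at most 0.0374 CPM in control16. Saa2 reached 1.46 CPM, against at most 0.0338 CPM in control16. Orm1 reached 453 CPM, against 145 to 311 CPM in control16, and Steap4 reached 596 CPM, against 367 to 388 CPM in control16. Albumin transcripts stood at 5233 CPM in the same library, and the part of liver RNA in these 4 values was not tested.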

How the results depend on the processing

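Of 196 counts of the 8 genes called, 169 stayed within 1.5 times the value reported, and of 1504 values of single genes 1340 kept their direction and their side of the threshold. Saa3 and Hp kept their calls in gain8 and regain under all alternatives run; in gain4 both calls ended in a fit to the compared groups alone (edgeR adjusted p = 0.105 for Saa3 and 0.133 for Hp). That fit called 6 of the 8 genes in gain8 (3 reported), 0 in gain4 (3 reported), 0 in loss (2 reported) and 2 in control8 against initial (0 reported). Of all 17821 genes it called 6000 in gain8 (4877 reported), 0 in gain4 (2056), 765 in loss (4557) and 1937 in control8 against initial (389). In loss the count was 0 with 3 libraries left out together (maintenance 3, loss 1 and control12 3) and with limma at either pseudocount, and 1 with all 27 libraries or no filter. In regain against maintenance (0 reported) it was 1 with those 3 libraries out and with limma on log2(FPKM + 1), and 2 with all 27 libraries, DESeq2 or the Lars2 term. For the maintenance effect less the loss effect it was 1 with RLE scaling or DESeq2. With 1 library left out the counts ranged from 2 to 2 in gain8, 0 to 3 in loss, 2 to 5 in gain4, 2 to 2 in regain, 0 to 1 in regain against maintenance and 0 to 1 in both differences of effects. The Serpina3n call in gain8 also ended with RLE scaling, all 27 libraries and limma (adjusted p between 0.0502 and 0.0552).

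Uncalled values changed sign as follows. Lcn2 in gain8 was -0.011 with library size alone and ranged from -0.37 to 1.17 with 1 library left out, where the reported value is 0.06. With 1 library left out, Steap4 in gain8 ranged from -0.21 to 0.071, Orm1 in gain4 from -0.36 to 0.23 and Serpina3n in regain from -0.34 to 0.28. With the replicate number as a block, the count was 4 in gain8, 2 in loss, 3 in gain4, 2 in regain and 0 in the other comparisons. DESeq2 gave no adjusted p for Saa1 in gain4.

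Over all genes, the calls ranged over these settings from 3075 to 6000 in gain8 (4877 reported), 765 to 5586 in loss (4557), 0 to 2986 in gain4 (2056), 3183 to 5858 in regain (4789), 0 to 3337 in regain against gain4 (1846) and 1968 to 5654 in regain against maintenance (5033). They ranged from 49 to 1937 in control8 against initial (389) and from 0 to 325 in control16 against control8 (31). For the maintenance effect less the loss effect they ranged from 0 to 3415 (1700), and for the loss effect less the gain8 effect from 0 to 85 (0). Saa1 and Saa2 rest on a few reads in most libraries, which limits their precision.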

Other observations

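Orm2, the copy of Orm1 whose transcript is nearest to it, averaged 5.05 ± 2.99 CPM in regain and 3.63 ± 1.18 CPM in control16 (SD, n = 3 each), and was not called there, although it was in gain8. Orm3 averaged 2.16 ± 1.04 CPM in regain and 15.2 ± 2.14 CPM in control16 (SD, n = 3 each), and fell there (log2 fold change -2.81 ± 0.63, SE; edgeR adjusted p = 0.00253). In gain8 Orm3 averaged 4.23 ± 0.824 CPM, against 11.1 ± 3.56 CPM in control8, and was not called (edgeR adjusted p = 0.0873). Reads may be shared between these copies.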
